A study of Macaca mulatta with 48 samples.

Results

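Round spermatids, the haploid germ cells that follow the second meiotic division, were picked out of the testis of the rhesus monkey (Macaca mulatta) by the messenger RNAs they carried. A cell was taken as a member when it had at least 1 unique molecular identifier (UMI, a tag that counts one captured RNA molecule) in 2 or more of the 4 chosen genes ACRV1, SPACA1, TEX29 and TMEM190. It also had to show no UMI of AURKA, a kinase of the meiotic divisions. PRM1, PRM2 and TNP1, which encode the protamines and a transition protein of later spermatids, had to make up less than 5% of its UMIs. Of 112577 barcodes, 112150 passed the cell filter (300 or more genes, no more than 30000 UMIs, and mitochondrial UMIs within 3%), and 12146 of these (10.8%) were members. The members were thus chosen by the UMIs of these 8 genes, so the levels of those genes describe the choice and are no result.

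The cells came from 12 droplet-based single-cell libraries (10x Genomics) of 6 untreated males, 2 prepubertal, 2 adult and 2 aged. Each animal gave one testis in the non-breeding season (NB, August) and the contralateral testis in the breeding season (B, December), which made 6 groups of 2 libraries. Animals are numbered 1 and 2 within each age, so that adult NB1 and adult B1 are both testes of adult animal 1. The breeding testis was always removed second, after the animal had lost the first, so season and order of removal cannot be told apart. The labels list 8 samples per group but name no matrix, so each library was assigned its age, season and animal by a sheet of libraries among the study's supplementary files, and n was taken as 2 animals per group.

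In a round spermatid the Golgi apparatus builds the acrosome, the enzyme sac that later opens on contact with the egg, and the flagellum starts to grow from the centriole. Transcription is still active, driven in part by the activator CREM, and many messages are stored for translation after the nucleus has been compacted by protamines. The cell is known for an X chromosome that was silenced in the pachytene spermatocyte and is only partly active afterwards.

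The sequences 250 bases upstream of 3 genes are shown because ACRV1 and TEX29 chose the members, LYZL6 was among the genes that led them, and CREM is known to bind the site searched. They were read from the Mmul_10 genome between the coordinates given and the annotated RefSeq start of the gene, 5′ to 3′ on the strand of the gene. Capitals mark the cAMP response element TGACGTCA or its short form TGACG, searched on both strands. The short form lies inside the full element, so a full match always holds short matches too.
ACRV1 (chr14:118443118-118443367, minus strand): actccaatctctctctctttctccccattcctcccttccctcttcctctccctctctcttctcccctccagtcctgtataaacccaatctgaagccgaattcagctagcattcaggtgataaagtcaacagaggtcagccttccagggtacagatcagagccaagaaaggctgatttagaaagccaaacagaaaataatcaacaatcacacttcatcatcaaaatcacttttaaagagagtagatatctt
TEX29 (chr17:92679301-92679550, plus strand): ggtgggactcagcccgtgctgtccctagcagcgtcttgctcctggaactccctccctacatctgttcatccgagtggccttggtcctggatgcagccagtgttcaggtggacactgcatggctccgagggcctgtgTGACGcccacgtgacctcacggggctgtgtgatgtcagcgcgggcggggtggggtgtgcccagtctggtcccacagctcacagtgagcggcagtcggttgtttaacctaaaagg
LYZL6 (chr16:32301165-32301414, minus strand): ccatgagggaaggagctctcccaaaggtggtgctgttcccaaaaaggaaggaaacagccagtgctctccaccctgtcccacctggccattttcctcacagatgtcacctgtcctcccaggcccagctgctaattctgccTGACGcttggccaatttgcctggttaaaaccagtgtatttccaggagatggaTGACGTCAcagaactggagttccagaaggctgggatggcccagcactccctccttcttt
The window of ACRV1, which encodes an acrosomal vesicle protein, held neither form. That of TEX29 held 1 short match, starting 114 bases before the gene. LYZL6, a lysozyme-like gene of the acrosome list, held the full element starting 59 bases before the gene, and another short match at 111 bases. Among the 20 genes that led the members, 19 had such a window, and 1 of the 19 (5.26%) held the full element, compared with 306 of 20759 windows of protein-coding genes (1.47%). The short form was present in 3 of the 19 (15.8%) against 19.8% of all windows, and the X-box, the site of RFX factors, was in none of the 19 and in 0.260% of all windows.

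Members were found in every adult and aged library, in very unequal numbers. In non-breeding libraries there were 165 and 2373 members in adult animals 1 and 2, and 1905 and 2602 in aged animals 1 and 2. In breeding libraries there were 1579 and 10 in the adult animals, and 1769 and 1704 in the aged animals. Adult B2 had only 117 filtered cells, and 4 of its 10 members carried a barcode that aged B1 held too. Over all members, 368 (3.03%) had a barcode that another library also held. Libraries with fewer than 20 members stayed out of the descriptions and season tests of genes, which therefore used 7 libraries with 12097 members. The age test of genes summed all libraries of an animal, so the 10 members of adult B2 entered it.

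**Figure D1:**
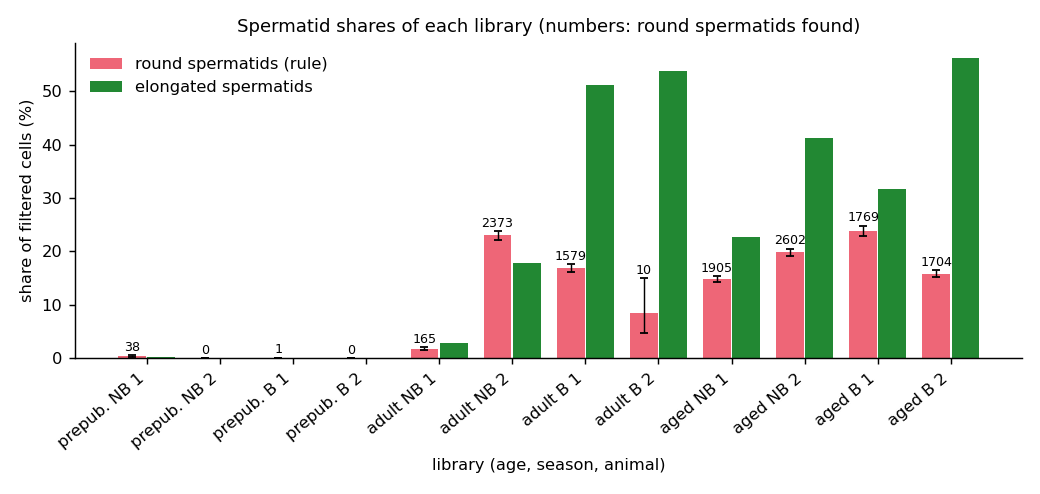
Share of filtered cells (y axis, percent) in each of the 12 libraries (x axis, NB non-breeding and B breeding) for members of the round spermatid rule (red) and for elongated spermatids (green). Error bars are 95% Wilson intervals of the member share, which cover counting error only, and the numbers above the red bars are the members found. Among the adult and aged libraries members ranged from 1.79% in adult NB1 to 23.9% in aged B1, and among the prepubertal ones from 0 to 0.363%.

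The label was checked against markers of other testis cells. Acrosomal and flagellar messages were present in the members of all 7 libraries. Their presence is no check of the label, because acrosomal genes were among those that chose the members. Both kinds of message were also found, at lower levels, in cells with somatic markers of all 7 libraries. The members were not one clean class. At least 3 genes of one somatic marker list were detected in 2749 of the 12146 members (22.6%). That applied to 85.5% of the members in adult NB1 and to 56.8% in that of adult animal 2. The share was 36.9% in aged NB1 and between 3.99% and 12.7% in the other 4 libraries. Meiotic genes were also frequent, with 3 or more of the meiotic list detected in 66.2% to 90.2% of the members. The cells are therefore called members below, by their rule. Several values that rest on somatic genes are given with and without the members that carried them, and others for all members only.

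Free RNA, released by broken cells and captured with every barcode, could reach the rule. Among filtered cells with at least 3 genes of one somatic list, 2 or more of the 4 chosen genes were detected in 3.45% in adult NB1 and in 21.4% to 34.97% in the other 6 libraries. The cells counted included the members themselves, which were 1.68% of the somatic-marker cells in adult NB1 and 8.94% to 20.8% in the other 6. In the prepubertal libraries the share with 2 or more chosen genes was at most 0.410%. The median share of PRM1, PRM2 and TNP1 was 0.108% to 2.41% of UMIs in members and 0.0622% to 5.63% in cells with somatic markers and fewer than 2 chosen genes. It was at or above that of the members in 6 of the 7 libraries, although only the members were capped at 5%. The part of free RNA in the member shares was not tested. Predicted doublets made up 962 of the members (7.92%), 4.47% to 11.9% per library.

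Depth differed between libraries. Total UMI counts of the 12 libraries ran from 959819 to 43405583, the lowest being adult B2, and the next lowest was 23072680. Members had a median of 6254 and 4728 UMIs in adult NB1 and NB2, 3910 in adult B1, and 1905 to 2988 in the aged libraries. Deeper cells pass a rule of detection more easily, so the shares below were also computed after thinning each cell to 1000 UMIs. Shallower cells were left out there, 73 in adult B2 and 886 to 1585 in each of the remaining adult and aged libraries. That left 2 members among 44 cells in adult B2. Thinning gave a seasonal difference of 1.80 points and an age difference of 5.27 points in place of 1.40 and 6.02.

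The 826 members with a protamine and TNP1 share of 4% to under 5% had a median of 2.93 UMIs of the chosen genes per 1000 UMIs, and 2.85 was found in the 582 otherwise fitting cells at 5% to under 6%. Cells failing only for a single AURKA UMI numbered 3050 and had 1.496 chosen UMIs per 1000, against 2.49 in all members. Exactly 2 of the chosen genes were found in 3719 members, 3 in 4106 and all 4 in 4321, and the median depth rose over these from 1921 to 3053 and 4514 UMIs. Cells with a single chosen gene, which the rule left out, numbered 7194 and had a median of 1532 UMIs.

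Levels are given as CPM, the UMIs of a gene per 1000000 UMIs, summed over all members of a library. Of the chosen genes, ACRV1 was at 180 to 268 CPM over the 7 libraries (median 249) and SPACA1, a protein of the inner acrosomal membrane, at 442 to 853 (median 695). TEX29 was at 489 to 934 CPM (median 819) and TMEM190, a small membrane protein, at 658 to 1295 (median 1060). Aged NB1 was lowest of the 7 for TEX29 and TMEM190, and aged B2 was lowest for SPACA1.

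The 20 genes that led the members over the remaining filtered cells of the same library included 5 with a known acrosomal role (TMEM210, EQTN, LYZL6, SPACA5 and SPACA3). TMEM210, an acrosomal gene, led with a log2 ratio of 2.496 ± 1.04 (SD over 7 libraries, pseudocount 20 CPM). It stood at 980 and 767 CPM in adult NB1 and NB2 and at 1072 in adult B1. In aged animals it was at 401 and 826 CPM in the non-breeding and 1011 and 1514 CPM in the breeding libraries. Its members were above the remaining cells in all 7 libraries, with the lowest level in aged NB1.

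FAM24A, EQTN and LYZL6 followed with log2 ratios of 2.46, 2.45 and 2.37. EQTN, a protein of the acrosomal membrane, was at 596, 633 and 801 CPM in the 3 adult libraries and at 499 to 765 CPM in the aged ones. The X-linked SPACA5 and its autosomal relative SPACA3, both lysozyme-like acrosomal proteins, had log2 ratios of 2.34 and 2.19. There were 2 kinases among the 20, TSSK4 of the testis-specific serine kinase family (2.11) and CAMK4, a calcium and calmodulin dependent kinase (2.03). LMNB2, which encodes a lamin of the nuclear envelope, had a ratio of 2.20. The other 11 were C16H17orf98, TMEM262, SMIM23, SSMEM1, ABRA, FNDC11, C1H1orf185, FKBP7, TSC22D4, CLDND2 and SPATA25, with ratios of 2.01 to 2.37. Genes at a mean of 20 CPM or more numbered 6541, and 522 of them (7.98%) had a mean log2 ratio of 1 or more.

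By list, 7 of 25 measured acrosome genes, 6 of 12 genes of sperm-egg interaction and 10 of 41 genes of the flagellum and axoneme reached that ratio. The ion channel and transporter list had 4 of 15 and the post-meiotic transcription list 3 of 14. Kinases and phosphatases had 2 of 11, as had the 14 genes of the spermatogonial list, while 1 each was found among 18 chromatin, 21 RNA storage and 15 ubiquitin genes. None of 14 sperm glycolysis genes and none of 39 nuclear genes of oxidative phosphorylation reached it. Because the same cells chose the members, no test was made of these ratios.

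Set between the stages before and after, some genes were highest in the members and others lay between. AURKA-positive late spermatocytes were cells with an AURKA UMI and 2 meiotic genes, and elongated spermatids were cells with 5% or more of their UMIs in PRM1, PRM2 and TNP1. Cells with somatic markers were not removed from either class. In aged B2 the median protamine and TNP1 share of such cells was 5.63%, above the limit of the elongated class. Their part in the levels of the classes was not tested. The summed level of the acrosome list had a median of 11030 CPM in members, against 6171 in the AURKA-positive and 11733 in the elongated cells. EQTN had medians of 158, 633 and 89.6 CPM in AURKA-positive cells, members and elongated cells, and SPACA3 had 185, 697 and 196 CPM. Both were higher in members than in either neighbour in 7 of 7 libraries. Members had to carry chosen genes, among them the acrosomal ACRV1 and SPACA1, and neither neighbouring class had to. That choice favours genes that go with the chosen ones in members. The orders of the classes here and below are therefore a description and no result of stage.

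Other acrosomal genes went on rising towards the elongated cells. CAPZA3, a capping protein of sperm actin, had medians of 258, 895 and 2469 CPM along the 3 classes. SPACA9 went from 364 to 928 and 1967 CPM, and ACTL9, an actin-like protein of the sperm head, from 210 to 665 and 1707 CPM. CCDC136, which takes part in acrosome formation, was at 1048, 853 and 932 CPM and did not follow that order. The acrosome list thus held genes that were highest in the members and others that were highest in elongated cells.

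**Figure D2:**
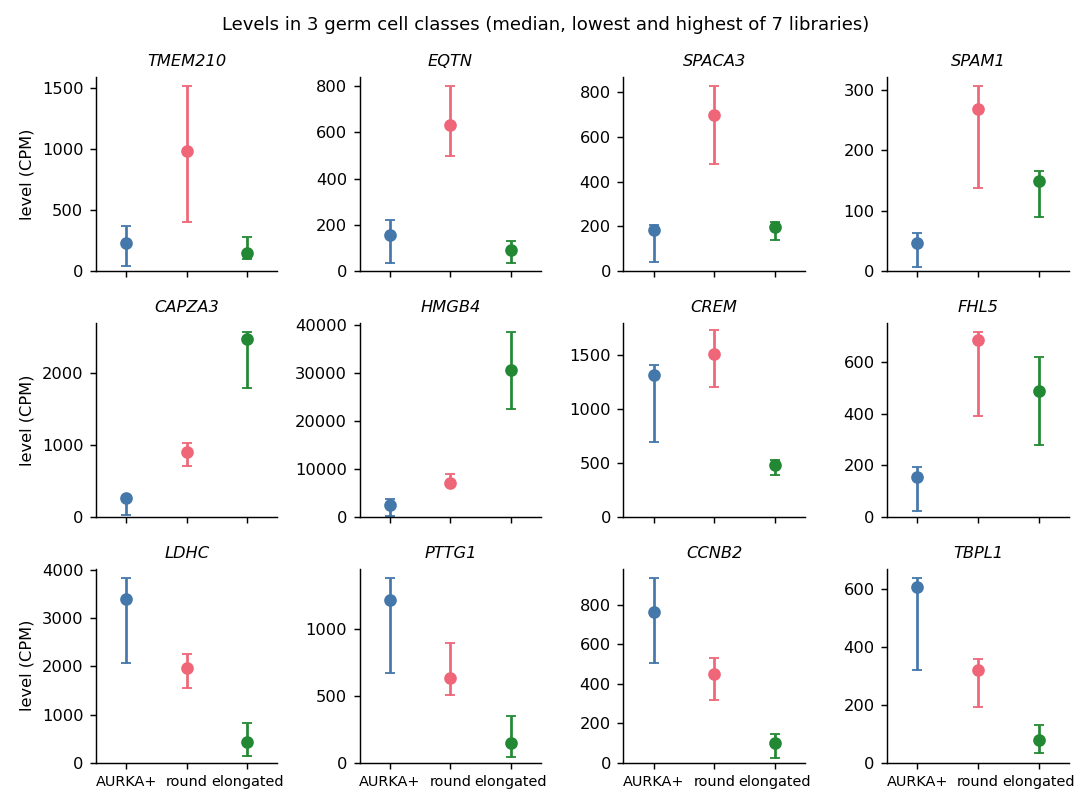
Levels (y axis, CPM) of 12 genes in AURKA-positive late spermatocytes (blue), members (red) and elongated spermatids (green). Points are medians and bars the lowest and highest of 7 libraries. TMEM210, EQTN, SPACA3 and SPAM1 were highest in the members, CAPZA3 and HMGB4 in elongated cells, and LDHC, PTTG1, CCNB2 and TBPL1 in AURKA-positive cells. The AURKA-positive cells were chosen in part by meiotic genes, which favours high levels of such genes there. Members were chosen by spermatid genes, which favours genes that go with those.

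Genes of sperm-egg interaction showed both patterns. SPAM1, the hyaluronidase of the sperm surface, had a median of 268 CPM in members, 46.4 in AURKA-positive and 148 in elongated cells. IZUMO1, the sperm ligand of the egg receptor JUNO, was low in all 3, at 79.5, 13.5 and 21.1 CPM, and higher in members than in either neighbour in all 7 libraries. IZUMO2 rose from 158 to 592 and 964 CPM. IZUMO4 fell along the classes, from 2560 to 1679 and 1023 CPM.

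Chromatin genes were dominated by the elongated cells. The summed chromatin list had a median of 13395 CPM in members (11309 to 15675). In cells with somatic markers and fewer than 2 chosen genes it was 17260 CPM (1927 to 19688). The part of free RNA in the members' chromatin messages was not tested. HMGB4, an HMG-box protein of spermatids, was at 6343, 7160 and 7150 CPM in members of the 3 adult libraries and at 7047 to 8833 CPM in the aged ones. Its medians were 2513 CPM in AURKA-positive and 30486 CPM in elongated cells. The linker histone H1-7 went from 453 to 1262 and 2420 CPM. BRDT, the bromodomain reader of acetylated histones, was at 526, 527 and 119 CPM, higher in members than in elongated cells in 7 of 7 libraries and higher than in AURKA-positive cells in 2 of 7. TNP2, which moves with the protamines that set the class limits, was at 814, 1150 and 15414 CPM.

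The summed list of post-meiotic transcription had medians of 2843 CPM in AURKA-positive cells, 3197 in members and 1378 in elongated cells, and its genes differed in order. CREM was at 1198 to 1726 CPM in members (median 1510), against medians of 1316 in AURKA-positive and 480 in elongated cells. FHL5, a coactivator of CREM, was at 155, 686 and 489 CPM. TBPL1, a relative of the TATA-binding protein, fell from 608 to 319 and 77.6 CPM, and KCTD19 fell from 226 to 141 and 34.9 CPM.

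Messages of energy metabolism had no common order. LDHC, the lactate dehydrogenase of male germ cells, had medians of 3388, 1962 and 437 CPM along the 3 classes, while GAPDHS, its glycolytic counterpart for glyceraldehyde phosphate, had 206, 584 and 1497 CPM. PGK2 differed little, at 514, 597 and 583 CPM. COX5A and COX7C of the respiratory chain were at 1264, 961 and 456 CPM and at 757, 724 and 264 CPM.

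The meiotic list had a median sum of 6028 CPM in AURKA-positive cells, 3295 in members and 915 in elongated cells. AURKA-positive cells were chosen by an AURKA UMI and by detected meiotic genes, and members by the absence of AURKA. That choice favours a higher meiotic sum in AURKA-positive cells than in members. The difference between these classes, here and for the genes below, is therefore a description and no result of stage. PTTG1, the securin that guards sister chromatid separation, was at 506 to 896 CPM in members and above that in the AURKA-positive cells of all 7 libraries. CCNB2 and CDC20, regulators of division, had medians of 449 and 296 CPM in members and 765 and 473 CPM in AURKA-positive cells. AURKA itself was absent by the rule.

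The summed spermatogonial list had medians of 199 CPM in AURKA-positive cells, 597 in members and 359 in elongated cells. SOHLH2, a helix-loop-helix factor of early germ cells, was at 163 to 367 CPM in members with medians of 89.8 in AURKA-positive and 212 in elongated cells. ZBTB16, a repressor that keeps spermatogonia undifferentiated, was at 86.0 to 176 CPM against medians of 28.9 and 36.8. GFRA1, the receptor for GDNF, was at 43.3 to 90.7 CPM against 14.9 and 56.7. The member ranges of SOHLH2 and GFRA1 thus reached below the medians of the elongated cells. MKI67, a gene of dividing cells, was at 3.44 to 17.4 CPM only.

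The X chromosome gave 1.02% to 1.35% of the placed UMIs in members of 6 libraries and 1.83% in adult NB1. AURKA-positive cells were lower in 7 of 7 libraries, at 0.455% to 1.48% (median 0.508%). Elongated cells were above the members in 6 of 7 libraries (median 1.35%), the exception being adult NB1, where members stood at 1.83% and elongated cells at 1.81%. Cells with somatic markers were highest, with a median of 2.06%. Members of that one library carried the most somatic markers (85.5% with 3 or more genes of a list), and their part in the X share was not tested.

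**Figure D3:**
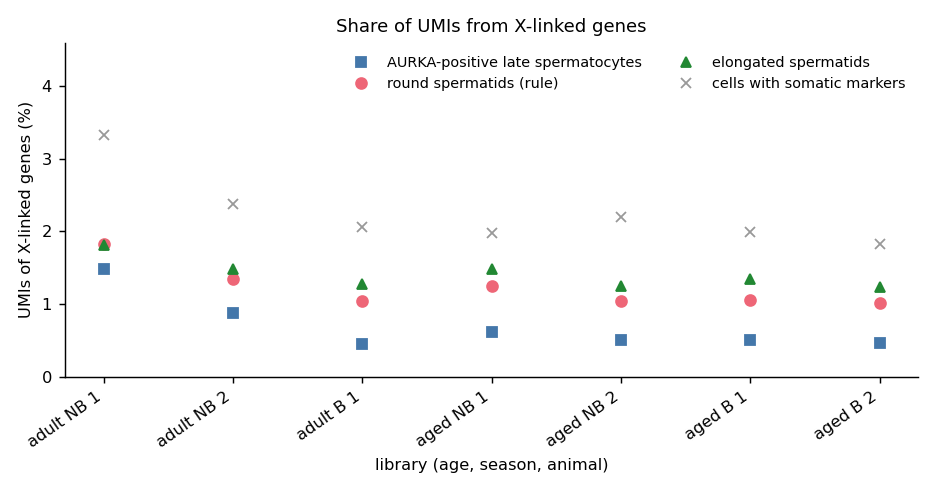
Share of UMIs from X-linked genes (y axis, percent of UMIs of placed genes) in 7 libraries (x axis), for AURKA-positive late spermatocytes (squares), members (circles), elongated spermatids (triangles) and cells with somatic markers (crosses). Members lay above the AURKA-positive cells in all 7 libraries.

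Among 99 X-linked genes at 20 CPM or more in members, the median log2 ratio of members to AURKA-positive cells was 0.54, and 26 were at least 2-fold higher. The same over 5690 autosomal genes was -0.06, with 649 at least 2-fold higher. Both sets were kept by their level in members alone, which favours a positive ratio, so the values are a description. SPACA5 was at 225 to 446 CPM in members and 26.3 to 122 in AURKA-positive cells. HMGB3, a chromatin protein, had a log2 ratio of 1.59, AKAP4, the main protein of the fibrous sheath, 1.48 and CYLC1, a protein of the sperm head cytoskeleton, 1.41. These 4 were higher in members in 7 of 7 libraries. The X-linked genes named here were chosen after their values were seen.

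Members differed among themselves in how much of the chosen genes they carried. Within each library they were split into 3 equal bins by the UMIs of the 4 chosen genes per 1000 UMIs. Summed over the cells of a bin, this was 0.916 to 1.39 in the lowest and 3.42 to 4.94 in the highest bin. SPAM1 had a log2 ratio of 1.90 between the highest and the lowest bin (7 of 7 libraries). CAPZA3 had 1.66, FHL5 1.62, TSSK2 1.37, IZUMO1 1.35, HMGB4 1.24 and SOHLH2 1.19, each in 7 of 7. PRM1, which was kept under its limit, had 0.75. The bins were ranked by the genes that chose the members, which favours a rise of genes that go with them and a fall of others. These ratios and those below are therefore a description, and no test was made of them.

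The opposite order was seen for messages shared with spermatocytes. CCNB2 had a log2 ratio of -1.06, TBPL1 -1.03, PTTG1 -0.95 and the respiratory COX4I1 -0.75, each lower in the highest bin in 7 of 7 libraries. LDHC had -0.58, in 6 of 7 libraries. ROPN1L of the fibrous sheath (-0.01) and PGAM2 (-0.06) differed by less than the spread between libraries. The Sertoli genes CLU and AMH had ratios of -1.92 and -1.34.

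Somatic markers and depth differed between the bins in some libraries. In aged NB1, 50.1% of the lowest and 23.9% of the highest bin carried 3 or more genes of a somatic list, and the median depth was 3300 and 1536 UMIs. In aged B2, where somatic markers were rare (4.58% and 3.17%) and depth was 2789 and 2776 UMIs, depth hardly differed. In aged B1 depth fell from 2677 to 1641 UMIs between the lowest and highest bin, while in adult NB1 it rose from 4979 to 7582 and in adult NB2 from 4648 to 5047. The somatic share fell from 8.32% to 1.53% in aged B1, from 17.1% to 8.16% in adult B1 and from 61.2% to 52.6% in adult NB2, and was 87.3% and 85.5% in adult NB1 and 8.30% and 6.22% in aged NB2. Their part in the ratios over 7 libraries was not tested.

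**Figure D4:**
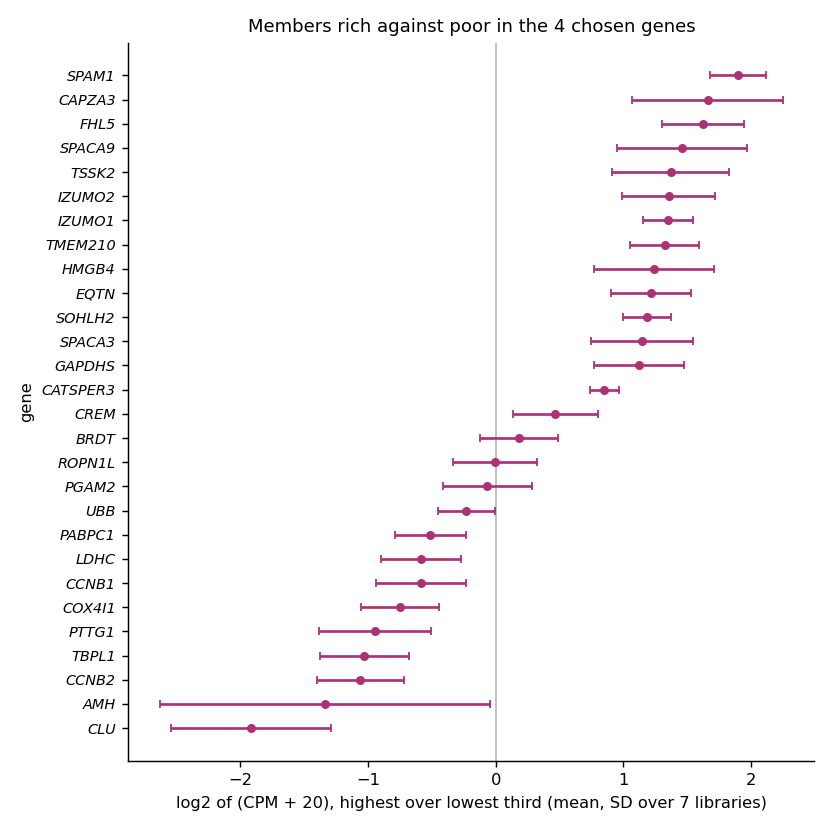
Log2 ratio of the level (CPM + 20) between members of the highest and of the lowest bin of chosen-gene content (x axis) for 28 genes (y axis). Points are means and bars the SD over 7 libraries. SPAM1 (1.90) lies at the top and CLU (-1.92) at the bottom.

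The first comparison of the study asked how the testis differs between seasons. The share of members among filtered cells in the non-breeding season was 1.79% and 23.0% in adult animals 1 and 2, and 14.8% and 19.8% in aged animals 1 and 2. In the breeding season it was 16.8% and 8.55% in the adult animals and 23.9% and 15.8% in the aged ones. Both seasons overlapped over most of their range. It rose in animal 1 of either age, by 15.0 points in the adult and 9.07 points in the aged, and fell in animal 2, by 14.5 points in the adult and 4.02 points in the aged.

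The 4 breeding libraries averaged 16.3% ± 6.27 (SD) and the 4 non-breeding libraries 14.9% ± 9.35, a difference of 1.40 points (exact permutation test, two-sided, p = 0.8, n = 4 and 4). It changed sign, to -2.96 points, without adult NB1, and to -1.14 points without aged B1. It also became -6.02 points when members were counted among members, AURKA-positive and elongated cells only (exact permutation test, p = 0.429). Other germ cells were left out of that count. That library of adult animal 1 consisted mostly of cells with somatic markers (8091 of 9239 filtered cells by the definition above), and the part of cell recovery in the share was not tested.

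Members were also set against elongated spermatids, the next stage. That class could hold cells with somatic markers, whose part in the ratio was not tested. The log2 ratio of members to elongated spermatids was -0.64 and 0.38 in non-breeding libraries of adult animals 1 and 2, and -0.62 and -1.06 in those of aged animals 1 and 2. In the breeding libraries it was -1.60 and -2.66 in the adult and -0.41 and -1.83 in the aged animals. The ratio was lower in the breeding season in 3 of the 4 animals, the exception being aged animal 1. The mean difference was -1.14, which did not pass the exact permutation test (two-sided, p = 0.114), or p = 0.25 with the animal as a replicate block, where the smallest possible p is 0.125. It moved to -0.80 without adult B2, which had 10 members.

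The messages of the members were compared between seasons on counts summed per library. In adults the breeding season was represented by 1 library, whose variation was taken from the remaining groups, and the edgeR quasi-likelihood test with Benjamini-Hochberg adjustment called 0 of 16517 genes (0.0% of those tested). Without adjustment 995 genes had p under 0.05. DESeq2 called 4 genes, all lower in the breeding season, namely PAGE2B, IL1RAPL1, NCL and TTR. In aged animals edgeR also called 0 of 16517 (0.0%), while 749 had p under 0.05 before adjustment. DESeq2 called 3, FOS and 2 genes without a symbol. The difference of the seasonal change between adults and aged gave 0 calls as well, 195 unadjusted, and DESeq2 called TTR alone. The genes named in this paragraph lay outside the naming rule and were chosen after their values were seen.

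No list of spermatid genes had a call in either age. The acrosome list had a median log2 change of 0.57 in adults, with 24 of 25 genes above 0, and 0.31 in aged animals, with 22 of 25 above 0, beside medians of -0.09 and -0.04 over all genes tested. Genes of sperm-egg interaction had medians of 0.43 and 0.48 (11 genes each), those of the flagellum 0.50 and 0.16 (40 genes) and those of sperm glycolysis 0.67 and 0.21 (14 genes). In members with fewer than 2 somatic marker genes the adult medians were 0.32 for the acrosome list, 0.19 for sperm-egg interaction, 0.23 for the flagellum and 0.36 for glycolysis. Adult NB1 had only 7 such members and stayed out. The adult seasonal values in those members, here and below, set adult B1 of animal 1 against adult NB2 of animal 2. Season and animal cannot be told apart there. The aged medians depended on aged NB1, where the acrosome sum was 8059 CPM against 11030 to 12070 in the other aged libraries. Without aged NB1 they were 0.04 for the acrosome list, 0.10 for sperm-egg interaction, 0.07 for glycolysis and -0.04 for the flagellum. Leaving out other libraries raised them to at most 0.76 (acrosome), 0.89 (sperm-egg interaction), 0.44 (glycolysis) and 0.62 (flagellum). The glycolysis median was -0.01 without aged B2. Within single genes the libraries overlapped in part. SPAM1, for example, was at 217 and 248 CPM in non-breeding and 295 CPM in breeding members of adults, and at 137 and 270 against 306 and 268 CPM in aged members.

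The meiotic list had medians of 0.52 in adults and 0.21 in aged animals (21 genes). These were 0.22 and 0.02 in members with fewer than 2 somatic marker genes, and the aged value was 0.07 without aged NB1, 0.35 without aged NB2, 0.13 without aged B1 and 0.14 without aged B2. The Sertoli, Leydig, and T and NK cell lists had negative medians. All 16 Sertoli genes tested had lower fitted levels in breeding members in adults (median log2 change -1.58) and in aged animals (-1.03), with no call. The summed Sertoli list was at 2786 and 1497 CPM in non-breeding and 649 CPM in breeding members of adults, and at 635 and 254 CPM against 187 and 201 CPM in aged members. The T and NK cell list had a median of -3.24 in aged animals (9 genes) and the Leydig and interstitial list -1.42 (12 genes). Both rested on aged NB1, where the T and NK sum was 269 CPM against 19.5 to 30.6 in the other aged libraries, and became -0.15 and -0.33 without it. The aged Sertoli median was -0.44 without it. In members with fewer than 2 somatic marker genes the Leydig median changed sign (0.36 in adults, 0.07 in aged animals) and that of the immediate early list did in aged animals (0.02). The Sertoli medians there were -0.95 in adults and -0.11 in aged animals. In summed counts, fewer cells of a type and less RNA per cell cannot be told apart.

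Immediate early genes, which respond within minutes to stimulation, had negative list medians in both ages (-1.01 and -1.32). The summed list did not follow the median in aged members, where it was at 1098 and 972 CPM in non-breeding and 996 and 1063 CPM in breeding libraries, which overlapped. In adults the sums were 1363 and 1333 against 1078 CPM. FOS, a component of the AP-1 factor, was at 55.2 and 76.8 CPM in non-breeding and 10.5 CPM in breeding members of adults. In aged members it was at 54.2 and 35.3 CPM against 11.4 and 5.92 CPM. The non-breeding libraries thus lay above the breeding ones without overlap, with log2 changes of -2.37 ± 0.50 (SE) in adults and -2.22 ± 0.38 in aged animals (edgeR adjusted p = 0.754 and 0.994, or 0.0204 and 0.000232 under the replicate block by animal). JUN, its partner, was at 90.0 and 69.2 against 16.6 CPM in adults and at 40.9 and 42.7 against 18.2 and 12.03 CPM in aged members (blocked edgeR adjusted p = 0.0182 and 0.0237). FOSB was at 30.0 and 30.9 against 3.27 CPM, and at 15.3 and 7.75 against 2.74 and 2.48 CPM (blocked edgeR adjusted p = 0.0204 and 0.0320). FOS and FOSB were chosen after their values were seen. FOS was far higher in cells with somatic markers (median 285 CPM) than in members (35.3 CPM), and few of its UMIs were left in members with fewer than 2 somatic marker genes. There FOS had 9 UMIs in adult NB2 (19.9 CPM) and 0 in adult B1, which allows up to 1.67 CPM. In aged animals it was at 8.16 and 3.02 CPM in NB1 and NB2 against 0.725 and 0.988 CPM in B1 and B2 (2 to 11 UMIs each). The aged log2 change of FOS was -2.35 there, about as large as in all members, and that of JUN was -2.40, with no call by edgeR (adjusted p = 1 for both). Adult JUN turned to a log2 of 3.41 in those members, on 1 UMI in adult B1 and 0 in adult NB2, and the list medians were -0.03 in adults and 0.02 in aged animals.

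With the animal as a replicate block, which left 1 residual degree of freedom, calls appeared. In adults 244 of 16517 genes (1.48%) were called, 12 higher (0.0727%) and 232 lower (1.4%) in the breeding season, a contrast that rests on the 2 libraries of adult animal 1. In aged animals there were 181 (1.1%), 34 higher (0.206%) and 147 lower (0.89%), and 3 genes (0.0182%) differed between the ages. Of the called genes, 200 of 244 (82.0%) in adults and 108 of 181 (59.7%) in aged animals were at least 2-fold higher in cells with somatic markers than in members, beside 8.59% of all 16524 genes fitted. The lower calls included 7 of 16 Sertoli, 4 of 16 immediate early and 4 of 39 oxidative phosphorylation genes in adults. In aged animals they included 4 of 9 T and NK cell, 4 of 16 immediate early and 2 of 16 Sertoli genes.

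No spermatid list had more than 1 gene called higher in that blocked fit. In adults TNP2 rose (log2 1.37, edgeR adjusted p = 0.0280) together with TPPP2 (1.85, adjusted p = 0.0103) and YBX3, a Y-box protein that stores messages (1.38, adjusted p = 0.0403). Between the libraries of adult animal 1, elongated cells went from 2.78% (NB1) to 51.2% (B1) of filtered cells. The median share of PRM1, PRM2 and TNP1 in cells with somatic markers went from 0.0622% to 3.57%. The part of free RNA in these adult rises was not tested. In aged animals TMEM210 rose by 1.26 (edgeR adjusted p = 0.00629). PEX16, a factor of peroxisome formation, rose by 1.84 there (adjusted p = 0.000182), and SYCE3 of the synaptonemal complex rose by 0.99 (adjusted p = 0.0407). TPPP2, YBX3 and PEX16 were chosen after their values were seen.

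For age, the share of members was 9.31% and 15.8% in adult animals 1 and 2 and 19.3% and 17.8% in aged animals 1 and 2, each the mean of both seasons. Aged animals averaged 18.6% ± 1.08 and adults 12.6% ± 4.59 (SD), a difference of 6.02 points. Both aged animals lay above both adults, and the exact permutation test gave p = 0.333, the smallest it allows with 2 animals in each group. Without adult B2, which had 117 filtered cells, adult animal 2 stood at 23.0%, above both aged animals, and the difference was 2.40 points (exact permutation test, p = 1). Leaving out other single libraries gave 2.26 points (adult NB1) to 9.78 points (adult B1), with 9.65 without adult NB2. It was 0.156 points with a protamine limit of 2%.

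Counts summed per animal gave 11 calls of 15886 genes (0.0692%), 3 higher (0.0189%) and 8 lower (0.0504%) in aged animals. AMH, the hormone of Sertoli cells, was at 112 and 98.4 CPM in members of adult animals 1 and 2 and at 13.3 and 9.39 CPM in those of the aged. It fell by 3.21 on the log2 scale (SE 0.31, edgeR adjusted p = 0.0204). INHA, an inhibin subunit made by Sertoli cells, was at 59.4 and 96.3 CPM in adults and at 11.8 and 7.64 CPM in aged animals (log2 -2.97, adjusted p = 0.0259). SERPINA5 (-2.71, adjusted p = 0.0259), PLA2G1B (-3.35, adjusted p = 0.0204) and APOC1 (-2.67, adjusted p = 0.0419) were lower as well. Of the Sertoli list 2 of 16 genes were called, both lower, and the list's median was -1.67 against 0.02 over all genes. In members with fewer than 2 somatic marker genes that median was -0.31.

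These 5 genes were higher in cells with somatic markers than in members of every animal. AMH was at 1455 and 621 CPM in cells with somatic markers of the adult animals and at 39.1 and 123 CPM in those of the aged. In members with fewer than 2 somatic marker genes it was at 8.29 and 6.50 CPM in adults and 2.21 and 2.09 CPM in aged animals. In those members 1 gene was called in place of 11, ENSMMUG00000043490 (edgeR adjusted p = 5.97e-05). The log2 changes there were -2.90 for PLA2G1B, -2.39 for APOC1, -1.85 for SERPINA5 and -1.82 for AMH, so the folds of PLA2G1B and APOC1 stayed close to those in all members. INHA was at 1.11 and 4.34 CPM in adults (2 UMIs each) against 0.830 and 1.20 CPM in aged animals (3 and 8 UMIs) there, too few for a fold.

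**Figure D5:**
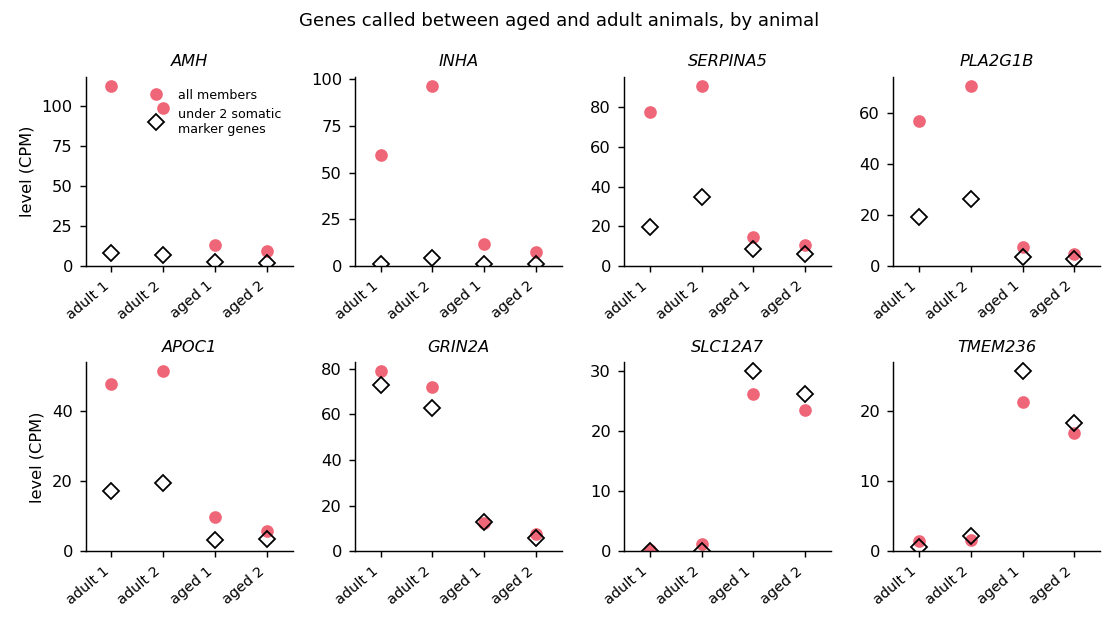
Level (y axis, CPM) of 8 genes called between aged and adult animals, for all members of an animal (filled circles) and for members with fewer than 2 somatic marker genes (open diamonds). AMH was at 112 and 98.4 CPM in all adult members and at 8.29 and 6.50 CPM in the latter, and GRIN2A at 79.1 and 71.8 against 72.9 and 62.9 CPM.

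Other called genes had similar levels in all members and in those with fewer than 2 somatic marker genes. GRIN2A, a subunit of the NMDA glutamate receptor, was at 79.1 and 71.8 CPM in adult and 12.3 and 7.36 CPM in aged animals (log2 -2.94, adjusted p = 0.0259). In members with fewer than 2 somatic marker genes it was at 72.9 and 62.9 against 13.0 and 5.84 CPM, and cells with somatic markers had 26.8 and 25.4 against 8.48 and 12.6 CPM. The adjusted p in those members was 0.0776, above the threshold of 0.05. SLC12A7, a potassium chloride cotransporter, was at 0.258 and 1.15 CPM in adult and 26.2 and 23.4 CPM in aged animals (log2 5.09, edgeR adjusted p = 0.0328, or 0.0555 in members with fewer than 2 somatic marker genes). TMEM236 was at 1.42 and 1.56 against 21.3 and 16.9 CPM (log2 3.70, edgeR adjusted p = 0.0419, or 0.130 in those members). The adult levels rested on few UMIs, 2 and 14 for SLC12A7 and 11 and 19 for TMEM236. In adult members with fewer than 2 somatic marker genes SLC12A7 had 0 and 0 UMIs and TMEM236 had 1 and 1, too few for a fold. With non-breeding libraries alone the log2 changes were -2.90 for GRIN2A, 4.66 for SLC12A7, 3.60 for TMEM236 and -3.79 for AMH, and the edgeR adjusted p was 0.0614, 0.114, 0.170 and 0.0965. Of the 11 calls 10 were lost there. SLC12A7 and TMEM236 had means under the level set for naming, and were named because only 3 genes were higher.

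Among genes without a symbol, ENSMMUG00000043490 was at 135 and 128 CPM in adult and 1.80 and 0.701 CPM in aged members, with 1049 and 1559 UMIs against 19 and 10 (log2 -6.75, adjusted p = 0.00244). ENSMMUG00000049502 had 0 UMIs in members of both adults and 286 and 962 UMIs in those of aged animals 1 and 2, at 27.0 and 67.4 CPM (adjusted p = 0.0259). No fold is given for it against 0 counts. With 2 animals per age, a difference between the ages and one between individual animals cannot be told apart.

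No spermatid list had a call with age. Medians were 0.01 for the acrosome list (12 of 25 genes below 0), 0.11 for the flagellum, 0.20 for the chromatin list and 0.09 for the meiotic list, beside 0.02 over all genes. When each animal was left out they ran from -0.35 to 0.29, from -0.27 to 0.34, from -0.0050 to 0.34 and from -0.10 to 0.29. The lowest values came without aged animal 2 for the first 3 lists and without adult animal 2 for the meiotic list, so none of these medians kept its sign. CREM, HMGB4 and the 20 leading genes were not called. Markers of immune and endothelial cells had higher fitted levels in the aged members, with medians of 1.63 for 6 T and NK cell genes and 1.15 each for 8 myeloid and 7 endothelial genes, and no call. These sums were high in aged NB1 alone for T and NK cells (269 CPM against 19.5 to 30.6 in the other 6 libraries) and endothelial cells (223 against 20.1 to 42.6). The myeloid sum was 218 CPM in aged NB1 and 66.0 CPM in aged B1, both of aged animal 1, but 20.4 and 17.6 CPM in the libraries of aged animal 2, within the 11.6 to 28.4 CPM of adults. The T and NK median was 0.31 without aged animal 1. The erythroid list, at 3451 CPM in members of aged NB1, was at 1.04 to 26.7 CPM in the other 6.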

How the data were processed

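The authors deposited raw UMI counts per gene and barcode, made per the labels with Cell Ranger 9.0.0 on Mmul_10. The study's further cell filters (ambient RNA, doublet and integration steps) were not used here. Of 26530 features, 9920 had no symbol, and 643 were named from a table of gene names. Barcodes needed 300 genes or more, no more than 30000 UMIs, and 3% or less of UMIs from 13 mitochondrial genes. Members, gene lists and naming rules were chosen with earlier results of these data known. In each of 21 lists the 6 genes highest in members were named, with the 20 leading genes and up to 8 called genes per direction at a mean of at least 20 CPM. Other genes are marked as chosen after their values were seen.

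Counts of members were summed per library (at least 20 members) or, for age, per animal with no minimum. They were tested with edgeR 4.0.16 (quasi-likelihood, Benjamini-Hochberg adjustment, threshold 0.05, R 4.3.3), with calls counted without the 7 detected genes used by the rule. DESeq2 1.42.0, its size factors, no low-count filter, other member rules, the animal as a replicate block and leaving out each library were alternatives. Shares were compared by exact permutation tests (scipy 1.17.1). Doublets were predicted with Scrublet in scanpy 1.11.5. Libraries of the same aged animal deviated together (r = 0.505 over 16276 genes), and the pairing comes from the library sheet, where both testes of an animal share its number. On simulated counts the test recovered 78% of 200 genes changed by a log2 of 2 in the adult season comparison, 96.5% in the aged and 100% in the age comparison, and 8.24%, 3.50% and 5.21% of its calls were false, above the 5% aimed at in the first and the last. The simulated spread was a fixed dispersion of 0.05, with no difference between animals and none in somatic RNA. Only genes with more than 20 expected counts were changed. These shares therefore give no measure of recovery in the observed counts. Intervals cover counting error only. With 2 animals per group, p-values are set against the spread among the few libraries or animals compared. Adult breeding had 1 library in the main season tests of genes, and so no spread of its own.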

Additional observations from a re-analysis of the deposited data

Results flagged for a closer look

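The non-breeding library of prepubertal animal 1 held 38 members among 10467 filtered cells, a share of 0.363% (95% Wilson interval 0.265% to 0.498%), above the 0.0287% that a count of 0 allows there. It is listed because prepubertal cells enter no comparison of the report. The other 3 prepubertal libraries held 0, 1 and 0 members. The 38 members had 860 CPM of TEX29 and 975 CPM of TMEM190, levels that describe the choice by the rule. Outside the rule they had 454 CPM of EQTN, and the acrosome list summed to 8444 CPM. They also had 1619 CPM of AMH and 6364 CPM over the Sertoli list, and 29 of the 38 carried 3 or more genes of a somatic list. In somatic-marker cells of that library 2 or more chosen genes were found in 0.410%, a count that includes the members themselves (0.298%). The part of these somatic markers in the share was not tested.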

How the results depend on the processing

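The seasonal difference in member share (1.40 points) became -1.41 with a protamine limit of 2%. It was -6.02 with members, AURKA-positive and elongated cells as the denominator, and ran from -2.96 to 4.12 when each library was left out. The cause was not tested. ZFP36 and JUN in adults went to 3.41 (log2) in members with fewer than 2 somatic marker genes, in place of -2.51 and -1.95, each on 1 UMI in adult B1 and 0 in adult NB2. Counts of called genes moved as follows. The adult season comparison (0) gave 4 under DESeq2, 244 under the replicate block by animal and 45 with no low-count filter, and could not be fitted without adult B1. The aged season comparison (0) gave 3, 181 and 247 under the same settings, and 0 to 695 when each library was left out, 695 being the count without aged NB2. The difference of seasons between ages (0) gave 1, 3 and 25, and 0 to 2. The age comparison (11) gave 68 by DESeq2, 130 with no low-count filter, 24 with the protamine limit of 2%, 1 in members with fewer than 2 somatic marker genes, 1 in non-breeding libraries only, and 30 to 415 when each animal was left out. Without predicted doublets it also gave 11, of which 10 were among those called first. With a pseudocount of 5 CPM, an alternative added after seeing the data, 917 genes in place of 522 had a log2 ratio of 1 or more over the remaining cells, and 17 of the 20 leading genes were shared. TMM and size factors differed by less than 0.05 in the median of all genes. Of the libraries in the season tests of genes adult NB1 had the fewest members (165). Adult B2 (10 members) entered those tests only where a minimum of 5 members was tried, but was part of the sums per animal for age.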
